A study of Mus musculus with 8 samples.

Results

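The Cyp1, Cyp2 and Cyp3 genes encode cytochrome P450 enzymes that oxidise drugs, environmental chemicals, steroids and unsaturated fatty acids in the liver. They were examined in liver RNA of aged obese female mice fed with or without docosahexaenoic acid (DHA), an omega-3 polyunsaturated fatty acid. Members were all protein-coding genes whose symbol is Cyp1, Cyp2 or Cyp3 followed by 1 subfamily letter and a number. This rule found 59 genes of 16 subfamilies among 56884 annotated genes, and it leaves out symbols that end in a further letter, such as Cyp3a41a. Of the 59 members, 41 had at least 5 counts in at least 50% of the libraries of a group and were tested among 12412 genes. The other 18 fell below that filter, 10 of them with no count in any library.

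All mice were C57BL/6J females that carried no engineered allele and received a saturated high fat diet from 2 months of age, with 20% of energy as protein, 35% as carbohydrate and 45% as lipid. After 4 months of that diet, the diet-induced obese (DIO) group stayed on it, and the DIO + DHA group received the same diet with 15% of its lipid by weight replaced by a DHA-rich concentrate. Both groups were studied at 18 months of age, in 3 DIO and 5 DIO + DHA libraries, each made from the liver of a different mouse. No lean, young or chow-fed mice were among the samples, so every difference described here lies within obese animals. The concentrate also held other omega-3 fatty acids, which cannot be told apart from DHA in this comparison.

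As background, P450 enzymes sit in the endoplasmic reticulum, hold a haem group and receive electrons from P450 oxidoreductase, encoded by Por. In hepatocytes their genes are switched on by sensors of foreign and endogenous chemicals. The constitutive androstane receptor (CAR, Nr1i3) is known above all for inducing Cyp2b10, the pregnane X receptor (PXR, Nr1i2) for Cyp3a11 and the aryl hydrocarbon receptor (AhR, encoded by Ahr) for Cyp1a1, Cyp1a2 and Cyp1b1. Several Cyp2 and Cyp3 genes are also expressed mainly in females or mainly in males under the pattern of growth hormone release, and many are expressed mainly in hepatocytes near the central vein.

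Library totals ranged from 1723800 to 5690347 counts, the lowest being DIO replicate 1, and the members took 1.12% to 1.26% of the counts. Levels are given in CPM, the counts of a gene relative to the total of its library (1e+06 for the whole library), scaled by the trimmed mean of M values. They count 3′ ends, were not divided by gene length, and so order genes by 3′-end counts. Fold changes are log2 values of DIO + DHA over DIO, each with its standard error (SE). They and their p-values come from edgeR (quasi-likelihood F test), with p-values adjusted over all genes tested by the Benjamini-Hochberg method, and a gene was called when its adjusted p was below 0.05. Of 12 hepatocyte markers 11 were found by name and all were expressed, with summed levels of 97210 to 103630 CPM in the DIO libraries and 101580 to 116490 CPM in the DIO + DHA libraries. Markers of other tissues also differed between the groups. Summed skeletal muscle markers were at 44.9 to 51.8 CPM in DIO and 1468 to 1606 CPM in DIO + DHA, with 20 of 20 called higher. Squamous epithelium markers were at 0.56 to 1.80 and 77.4 to 88.8 CPM, with 9 of the 13 found at 0 in every DIO library. Summed macrophage and Kupffer cell markers were at 870 to 974 CPM in DIO and 502 to 537 CPM in DIO + DHA, with 10 of 12 called lower and 1 higher. The part of these signals in the differences below was not tested. In bulk liver, fewer cells of a type and less RNA per cell cannot be told apart.

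Of the 41 tested members, 9 were higher and 9 were lower in the DIO + DHA group, and 23 were not called. The called share was 43.9%, against 15.2% of all genes tested. Of the tested members, 34 had a mean of at least 10 CPM. Genes with more counts are called more easily, and the part of level in this share and those below was not tested. By direction, 21.95% of the members were called higher, against 7.89% of all genes tested, and 21.95% were called lower, against 7.28%. The libraries of the 2 groups did not overlap in CPM for 21 members, or 51.2%, against 18.4% of all genes tested, and this held for 17 of the 18 called members. The 21 include Cyp2d12, which was not called and passed the filter only through the DIO libraries, where it was higher. The median log2 fold change was -0.02 over the members and 0.00 over all genes tested, and the median size of the change was 0.29 and 0.22. Most differences were therefore small, and they ran in both directions. Only 3 called members differed by more than 1 on the log2 scale, namely Cyp2b10, Cyp2c39 and Cyp2c54, all of them higher. A separate list of 36 other protein-coding Cyp genes had 22 tested, of which 6 were higher and 2 lower (36.4% called).

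**Figure D1:**
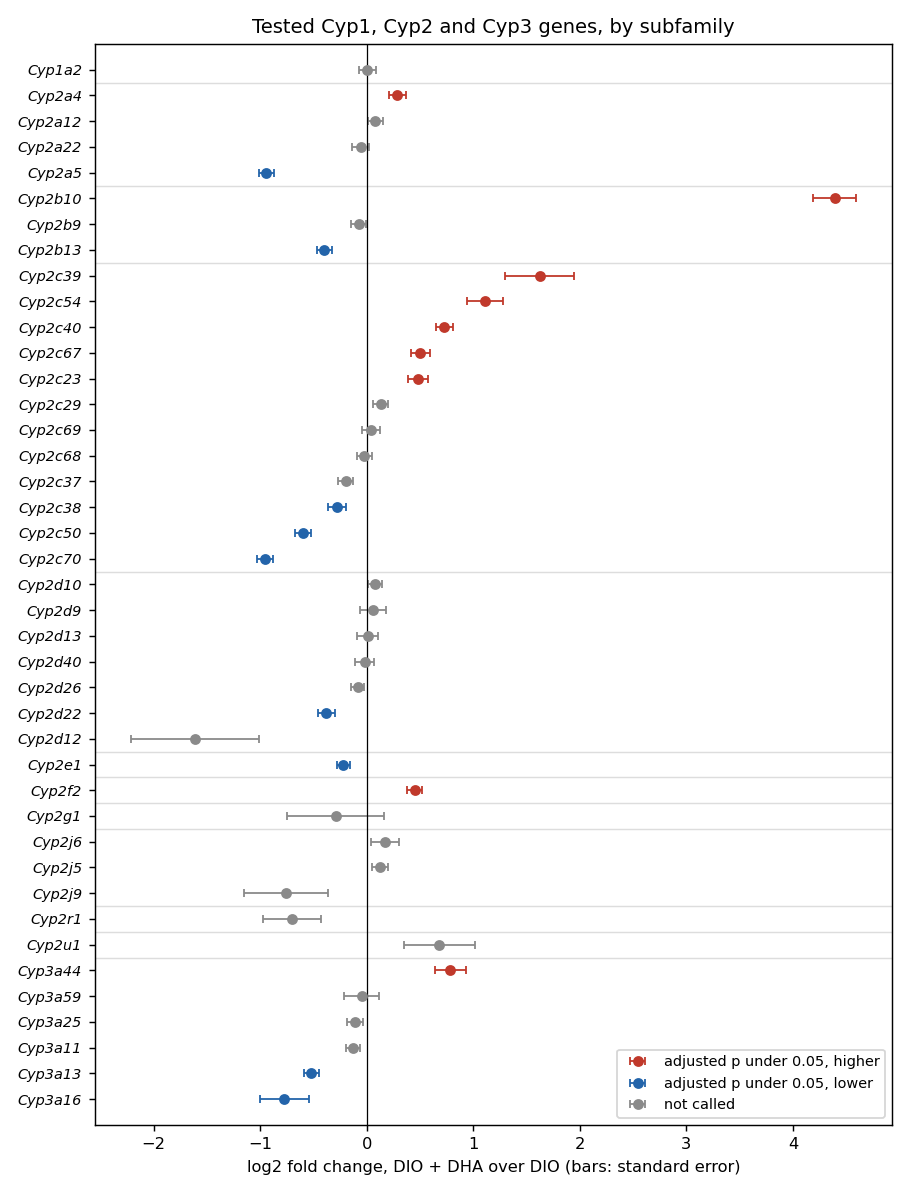
Log2 fold change (x axis, DIO + DHA over DIO, 3 against 5 libraries) with its standard error for each of the 41 tested members, grouped by subfamily. Red points were called higher, blue points lower and grey points were not called; Cyp2b10 lies far to the right at 4.39, and the Cyp2c genes spread from -0.95 to 1.62.

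The largest difference was that of Cyp2b10 (ENSMUSG00000030483), whose product oxidises many drugs and whose transcript is the standard read-out of CAR activity. Its level was 3.38, 1.44 and 2.48 CPM in the DIO libraries (6, 8 and 14 counts) and 49.4, 42.2, 54.2, 44.7 and 40.8 CPM in the DIO + DHA libraries (249, 126, 152, 191 and 187 counts). Every DIO + DHA library was thus far above every DIO library. The mean rose from 2.43 ± 0.97 (SD, n = 3) to 46.3 ± 5.51 CPM (SD, n = 5), by 4.39 on the log2 scale (SE 0.20, adjusted p = 1.14e-25). Ordered from the highest log2 fold change, it was number 96 of all genes tested.

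Its neighbours on chromosome 7 did not share this rise. Cyp2b13, expressed mainly in females, was at 327, 296 and 321 CPM in DIO and at 229, 252, 240.5, 229 and 241 CPM in DIO + DHA. It fell by 0.40 on the log2 scale (SE 0.07, adjusted p = 1.26e-05), with no overlap. Cyp2b9, also expressed mainly in females, was at 292 ± 10.3 (SD, n = 3) and 277 ± 10.4 CPM (SD, n = 5) and was not called, with a log2 fold change of -0.07 and a 95% interval of -0.21 to 0.07. Cyp2b19 and Cyp2b23 had no counts. The 3 expressed genes lie at chr7:25597045-25626049 (Cyp2b10), chr7:25760922-25795622 (Cyp2b13) and chr7:25872836-25910086 (Cyp2b9) of GRCm39, all on the plus strand. For every Cyp2b10 count there were 97.0, 205 and 129 counts of Cyp2b13 in the DIO libraries and 4.64, 5.96, 4.43, 5.12 and 5.89 in the DIO + DHA libraries. Only 0.95% of the 80-base windows in the last 500 transcript bases of Cyp2b10 are shared with Cyp2b13, so few reads could be exchanged between them.

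The 120 bases nearest to the start of these genes are shown because the members of this cluster differed in response while standing side by side. They are RefSeq sequences of GRCm38.p6, plus strand, at chr7:25897538-25897657 (Cyp2b10), chr7:26061375-26061494 (Cyp2b13) and chr7:26173289-26173408 (Cyp2b9). Capitals mark the 30 aligned bases of Cyp2b13 and of Cyp2b9 that differ from Cyp2b10.
Cyp2b10: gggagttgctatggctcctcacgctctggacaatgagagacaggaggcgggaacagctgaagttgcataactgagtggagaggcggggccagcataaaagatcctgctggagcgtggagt
Cyp2b13: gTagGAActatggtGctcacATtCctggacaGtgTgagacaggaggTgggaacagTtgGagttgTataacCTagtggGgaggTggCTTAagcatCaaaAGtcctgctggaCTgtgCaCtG
Cyp2b9: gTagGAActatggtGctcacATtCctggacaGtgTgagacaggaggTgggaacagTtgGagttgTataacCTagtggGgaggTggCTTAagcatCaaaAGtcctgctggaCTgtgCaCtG
Over the 250 bases before the start, Cyp2b10 was 70% identical to Cyp2b13 and to Cyp2b9, while Cyp2b13 and Cyp2b9 were 99.2% identical to each other. These 2 near-identical promoters thus stood in front of a gene that fell and a gene that was not called.

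Cyp2b10 is also known for a more distant enhancer that binds CAR at nuclear receptor sites, each made of 2 half-sites 4 bases apart. The letters TGNACTNNNNTGACCT were chosen with that element in mind and searched on both strands (reverse AGGTCANNNNAGTNCA) in the 3000 bases before the start of 21665 protein-coding genes of GRCm39. They occurred before 50 genes (0.231%), and before 2 of the 41 tested members, Cyp2b10 and Cyp1a2. Because the letters were chosen from the Cyp2b10 element, the match before Cyp2b10 was built in and is not a result. The matches are shown with 7 bases on each side and the motif in capitals. Each is written on the strand of its gene, plus for Cyp2b10 and minus for Cyp1a2. The first lies at chr7:25594740-25594769, 2298 bases before the start of Cyp2b10, and the second at chr9:57593541-57593570, 2577 bases before the start of Cyp1a2.
Cyp2b10: cagaatcTGTACTTTCCTGACCTtggcaca
Cyp1a2: gagaggtAGGTCAAGAGAGTACAcatttgt
Cyp2b10 and Cyp1a2 thus both held a match, with log2 fold changes of 4.39 and 0.00. A stricter form, TGACCTNNNNTGACCT (reverse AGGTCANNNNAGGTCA), occurred before 20 genes (0.0923%) and before none of the tested members. A match in letters does not show that a receptor binds there.

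**Figure D2:**
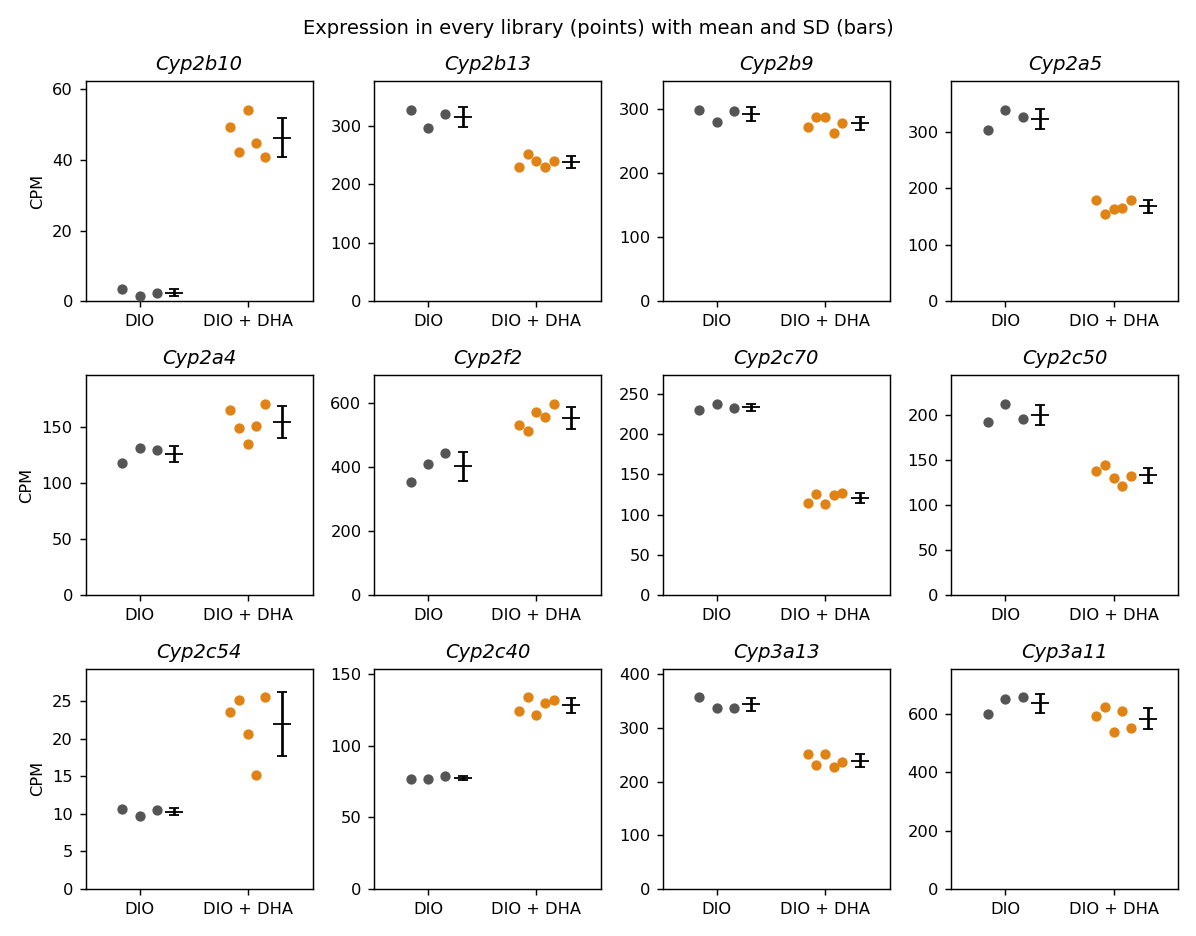
Level in CPM (y axis, from 0) of 12 members in each of the 3 DIO libraries (grey) and 5 DIO + DHA libraries (orange), with the mean and SD beside the points. Cyp2b10, Cyp2c40, Cyp2c54 and Cyp2f2 sit higher in DIO + DHA without overlap, Cyp2a5, Cyp2c70, Cyp2c50, Cyp3a13 and Cyp2b13 sit lower without overlap, and the points of Cyp2b9 and Cyp3a11 overlap.

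The classical markers of the other sensors gave no such rise. Cyp1a2, which oxidises caffeine and aromatic amines and is a target of AhR, was at 184, 218 and 179.7 CPM in DIO and 209, 195, 183, 214 and 174 CPM in DIO + DHA. The groups overlapped fully, and the log2 fold change was 0.00 (SE 0.08, adjusted p = 0.98), with a 95% interval of -0.15 to 0.16. Its sign turned with small changes in the processing. The other AhR targets were near the detection limit: Cyp1a1 had no count in DIO and 1, 0, 0, 1 and 0 counts in DIO + DHA. Cyp1b1 had 2, 2 and 3 counts against 1, 3, 2, 1 and 1. Cyp3a11, the main mouse counterpart of human CYP3A4 and the marker of PXR, was at 599, 652 and 656 CPM in DIO and 594, 622, 538, 611 and 551 CPM in DIO + DHA. It was not called, at -0.13 on the log2 scale (SE 0.07, adjusted p = 0.225, 95% interval -0.26 to 0.01). Cyp2c55, a further gene induced through CAR and PXR, had 0, 0 and 2 counts in DIO and 3, 0, 0, 1 and 1 in DIO + DHA, and no difference was detectable at this depth. Of the 6 inducible markers, 3 were tested and only Cyp2b10 was called.

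Among the Cyp2a genes, a near-identical pair separated. Cyp2a5, the mouse coumarin 7-hydroxylase, was at 304, 340 and 326 CPM in DIO and at 180, 154.5, 163, 165 and 179.5 CPM in DIO + DHA. All DIO + DHA libraries lay below all DIO libraries, and the level fell by 0.94 on the log2 scale (SE 0.07, adjusted p = 3.21e-16), so that the DIO level was 1.92-fold the DIO + DHA level. Cyp2a4, a testosterone 15-alpha-hydroxylase expressed mainly in females, rose from 126 ± 7.21 (SD, n = 3) to 154 ± 14.3 CPM (SD, n = 5), by 0.29 on the log2 scale (SE 0.08, adjusted p = 0.00934). The call of Cyp2a4 was lost in the 6 libraries whose replicate numbers occur in both groups (adjusted p = 0.0503). Of its terminal windows, 19.2% are shared with Cyp2a5 or a pseudogene. For every Cyp2a4 count there were 2.59, 2.60 and 2.52 counts of Cyp2a5 in DIO and 1.09, 1.04, 1.22, 1.10 and 1.05 in DIO + DHA, a ratio chosen after the values were seen. Cyp2a12, an abundant testosterone hydroxylase, was at 626, 733 and 722 CPM in DIO and 756, 678, 685, 700.0 and 859 CPM in DIO + DHA, and was not called (log2 fold change 0.08, SE 0.07). Cyp2a22 was not called either (log2 fold change -0.06).

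The stretches next to the starts of Cyp2a5 and Cyp2a4 are shown to set this divergence beside their likeness. They are RefSeq sequences of GRCm38.p6, plus strand, at chr7:26835219-26835338 and chr7:26307072-26307191, and capitals mark the 3 bases of Cyp2a4 that differ from Cyp2a5 in the alignment. The aligned stretches are offset by 1 base, so the first capital stands opposite the Cyp2a5 base just before its stretch.
Cyp2a5: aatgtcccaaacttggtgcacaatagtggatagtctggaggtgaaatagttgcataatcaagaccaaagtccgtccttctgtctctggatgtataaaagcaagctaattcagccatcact
Cyp2a4: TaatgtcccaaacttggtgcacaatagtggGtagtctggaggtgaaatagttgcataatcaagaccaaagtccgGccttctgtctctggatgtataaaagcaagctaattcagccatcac
Over 250 bases the identity was 97.6%. The genes themselves lie at chr7:26534730-26542973 (Cyp2a5) and chr7:26006594-26014513 (Cyp2a4) of GRCm39.

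The Cyp2c genes, of which many convert arachidonic acid and other polyunsaturated fatty acids to epoxides, held the most calls. Of 15 members 12 were tested, with 5 higher, 3 lower and 4 not called. The largest fall was in Cyp2c70, the enzyme that makes the muricholic acids particular to mouse and rat bile. It was at 230.1, 238 and 232 CPM in DIO and at 114, 125, 113, 125 and 127 CPM in DIO + DHA, a fall of 0.95 on the log2 scale (SE 0.07, adjusted p = 5.99e-16), and no DIO + DHA library reached any DIO library. Cyp2c50, an epoxygenase, was at 192, 212 and 195 CPM against 137, 144, 129.5, 121 and 132 CPM, and fell by 0.60 on the log2 scale (SE 0.08, adjusted p = 8.14e-09). Cyp2c38, also an epoxygenase, fell less, from 117 ± 8.61 (SD, n = 3) to 94.9 ± 6.63 CPM (SD, n = 5), by 0.28 on the log2 scale (SE 0.08, adjusted p = 0.0131). Its call was lost without DIO replicate 1 (adjusted p = 0.0785) and without DIO replicate 4 (adjusted p = 0.0766).

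The Cyp2c genes that rose were mostly less abundant in the DIO libraries. Cyp2c40, which forms hydroxylated arachidonic acid and is expressed mainly in females, was at 76.5, 76.5 and 78.8 CPM in DIO and at 124, 134, 121, 129.5 and 132 CPM in DIO + DHA. The gap between the groups was far wider than the spread within either, and the log2 fold change was 0.73 (SE 0.08, adjusted p = 3.73e-10). Cyp2c54, an epoxygenase, was at 10.7, 9.74 and 10.47 CPM in DIO and at 23.6, 25.1, 20.7, 15.2 and 25.55 CPM in DIO + DHA, a log2 fold change of 1.11 (SE 0.17, adjusted p = 1.07e-06). Cyp2c67 was at 60.2, 71.9 and 77.9 CPM in DIO and at 90.7, 106, 99.5, 104 and 108 CPM in DIO + DHA, a log2 fold change of 0.50 (SE 0.09, adjusted p = 2.07e-05). It shares 11.4% of its terminal windows with Cyp2c40 and Cyp2c68. Cyp2c39 rested on few counts, 6, 12 and 8 in DIO and 33, 25, 22, 16 and 27 in DIO + DHA, with a log2 fold change of 1.62 (SE 0.32, adjusted p = 0.000128). Cyp2c23, an arachidonic acid epoxygenase that lies apart from the others on chromosome 19, rose from 54.5 ± 6.09 (SD, n = 3) to 76.2 ± 5.49 CPM (SD, n = 5), by 0.48 on the log2 scale (SE 0.10, adjusted p = 0.000134).

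The 4 tested Cyp2c genes that were not called included the most abundant one by 3′-end counts. Cyp2c29 was at 460 ± 32.2 (SD, n = 3) and 502 ± 28.7 CPM (SD, n = 5), with a log2 fold change of 0.13 and a 95% interval of -0.01 to 0.27. Cyp2c37 had non-overlapping libraries, at 345 to 378 CPM in DIO and 271 to 344 CPM in DIO + DHA, and an adjusted p of 0.0544 (log2 fold change -0.20, edgeR). It was called without DIO + DHA replicate 2 (adjusted p = 0.0316) and without DIO + DHA replicate 6 (adjusted p = 0.013). Cyp2c69, expressed mainly in females, and Cyp2c68 gave log2 fold changes of 0.04 and -0.02, and 17.6% and 31.4% of their terminal windows also occur in other gene copies, so that reads from there could not be assigned.

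**Figure D3:**
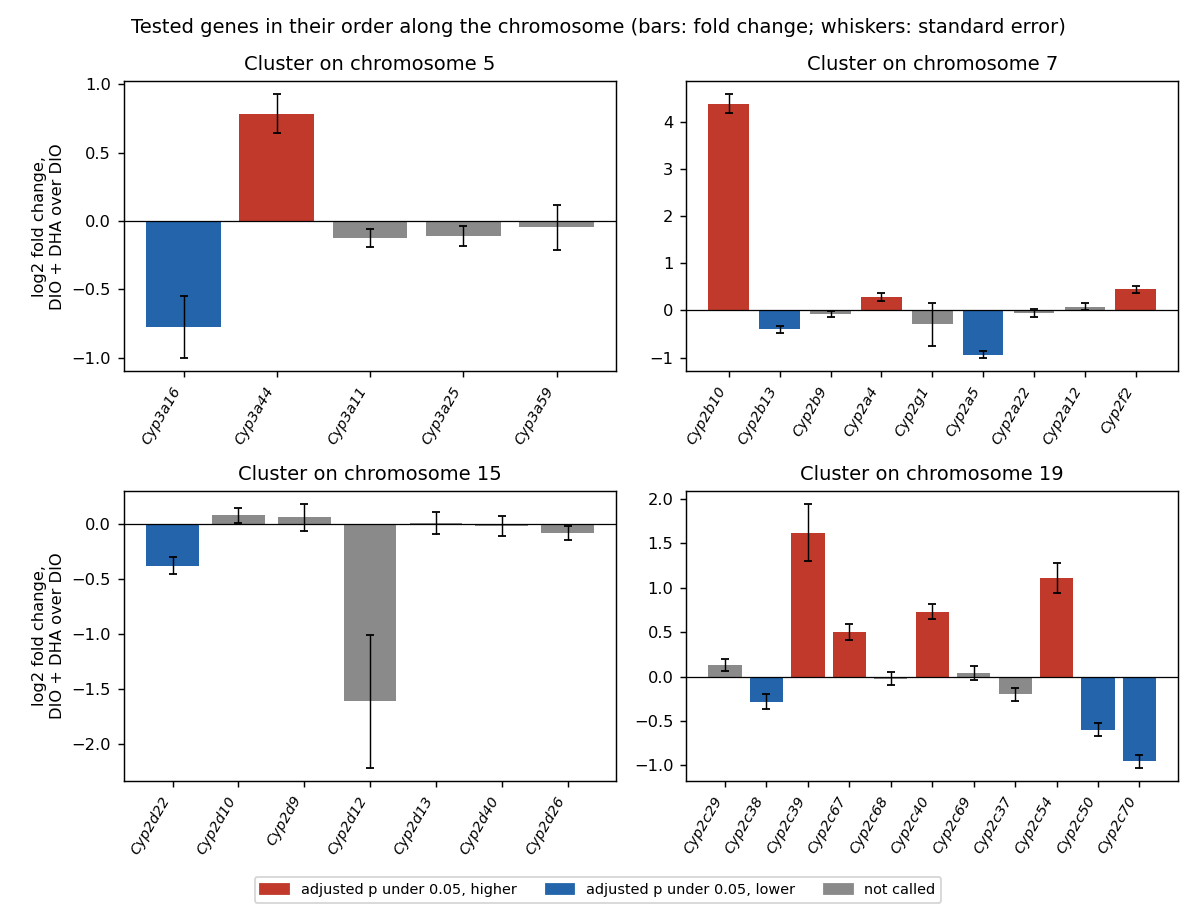
Log2 fold change (y axis, DIO + DHA over DIO, with its standard error) of the tested members of 4 gene clusters, in their order along the chromosome; red bars were called higher, blue lower and grey were not called. On chromosome 19 the 4 genes called higher lie between Cyp2c38 on one side and Cyp2c50 and Cyp2c70 on the other, which were called lower; the y axes differ between panels.

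The genes of a cluster therefore did not move as blocks. In the chromosome 19 cluster from Cyp2c29 to Cyp2c70, which spans 918 kb, 4 of 11 tested members were higher and 3 were lower, and 2 pairs of tested neighbours were called in opposite directions. These were Cyp2c38 with Cyp2c39 and Cyp2c54 with Cyp2c50. For every Cyp2c54 count there were 18.0, 21.8 and 18.6 counts of Cyp2c50 in DIO and 5.82, 5.72, 6.26, 7.95 and 5.16 in DIO + DHA, again a pair chosen after the values were seen. The chromosome 7 cluster from Cyp2b10 to Cyp2f2 had 3 higher and 2 lower among 9. The Cyp2d cluster on chromosome 15 had 1 lower among 7, the Cyp3a cluster on chromosome 5 had 1 higher and 1 lower among 5, and none of 3 tested Cyp2j genes on chromosome 4 was called.

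Cyp2e1, the ethanol-inducible P450 and the member with the most 3′-end counts, was lower in the DIO + DHA group. It was at 3184, 3099 and 3168 CPM in DIO and at 2795, 2945, 2618, 2734 and 2437 CPM in DIO + DHA, a fall of 0.22 on the log2 scale (SE 0.06, adjusted p = 0.00738), with no overlap. This fall amounted to 444 of the 717 CPM by which the mean sum of all members was lower. Cyp2f2, which oxidises naphthalene and is expressed in hepatocytes near the portal vein, went the other way. It was at 355, 411 and 445 CPM in DIO and at 531, 512, 573, 556 and 599 CPM in DIO + DHA, a log2 fold change of 0.45 (SE 0.07, adjusted p = 1.77e-06). An antisense gene, Gm15883, overlaps 13.5% of the exon bases of Cyp2f2, and counting without strand cannot separate them. Cyp2f2 is also the main P450 of airway club cells, whose 4 marker genes summed to at most 0.53 CPM in DIO and 1.005 CPM in DIO + DHA.

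Of 7 members known to be expressed near the central vein, Cyp2a5, Cyp2e1 and Cyp2c50 were lower, Cyp2c54 was higher, and Cyp1a2, Cyp2c29 and Cyp2c37 were not called. The median log2 fold change of this list was -0.20, against 0.00 for all genes tested.

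The Cyp2d genes were abundant, and only Cyp2d22 among the 7 tested was called. Cyp2d26 was at 1572, 1660.0 and 1822 CPM in DIO and at 1636, 1570.1, 1564.5, 1449 and 1717 CPM in DIO + DHA, and the groups overlapped (log2 fold change -0.09, SE 0.06, 95% interval -0.21 to 0.04). Cyp2d10 was at 1188, 1247 and 1459 CPM against 1381, 1328, 1401, 1467.5 and 1275 CPM, and was not called (log2 fold change 0.08, SE 0.07). Cyp2d9, the member known to be expressed mainly in males, stayed at a low level in both groups of females, 27.4 ± 2.95 (SD, n = 3) and 29.1 ± 2.29 CPM (SD, n = 5), and was not called. Cyp2d22, often described as the counterpart of human CYP2D6, was at 148, 137 and 161 CPM in DIO and at 113, 111, 112, 117 and 117 CPM in DIO + DHA. It fell by 0.38 on the log2 scale (SE 0.08, adjusted p = 0.000201), with no overlap. Cyp2d12 passed the filter only through the DIO libraries, with 2, 6 and 11 counts against 1, 1, 1, 3 and 3, and was not called (adjusted p = 0.0611).

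In the Cyp3a subfamily, which oxidises a broad range of drugs, steroids and bile acids, 2 genes fell and 1 rose. Cyp3a13, which lies apart from the others on chromosome 5, was at 357, 338 and 337 CPM in DIO and at 251, 231, 252, 226 and 237 CPM in DIO + DHA. It fell by 0.52 on the log2 scale (SE 0.07, adjusted p = 2.61e-08). Cyp3a44, expressed mainly in females, was at 13.5, 15.7 and 14.7 CPM in DIO and at 23.8, 26.1, 23.2, 26.7 and 28.2 CPM in DIO + DHA, a log2 fold change of 0.78 (SE 0.14, adjusted p = 2.7e-05), and 15.0% of its terminal windows are shared with a pseudogene. Cyp3a16, a form of early life and of females, spread widely within DIO, at 20.3, 13.2 and 7.10 CPM, and overlapped with DIO + DHA, at 6.94, 7.37, 8.56, 6.56 and 6.11 CPM. Its call (log2 fold change -0.77, SE 0.23, adjusted p = 0.0141) was lost without DIO replicate 1 (adjusted p = 0.125) and without DIO replicate 4 (adjusted p = 0.13). Cyp3a25 and Cyp3a59 were not called (log2 fold changes of -0.11 and -0.05).

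Of the 7 tested members known to be expressed mainly in females, Cyp2a4, Cyp2c40 and Cyp3a44 rose, Cyp2b13 and Cyp3a16 fell, and Cyp2b9 and Cyp2c69 were not called. They thus did not share a direction, and their summed level with the 2 Cyp3a41 genes, which bear the same sex pattern, was 947 CPM in DIO and 941 CPM in DIO + DHA.

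The remaining subfamilies were low or showed no call. Cyp2j5, an arachidonic acid epoxygenase, was at 258 ± 23.9 (SD, n = 3) and 282 ± 21.1 CPM (SD, n = 5) and was not called (log2 fold change 0.12, 95% interval -0.03 to 0.27). Cyp2r1, a vitamin D 25-hydroxylase, was at 6.34 ± 1.76 and 3.89 ± 1.51 CPM (SD, n = 3 and n = 5) and was not called (adjusted p = 0.0749, edgeR). It was called without DIO replicate 4 (adjusted p = 0.0493) and without DIO + DHA replicate 1 (adjusted p = 0.0172). Cyp2u1, a fatty acid hydroxylase, and Cyp2g1, an olfactory form, stayed under 5 CPM in every library and were not called. Cyp2s1 had 0, 0 and 1 counts in DIO and 5, 1, 0, 5 and 3 in DIO + DHA, below the filter. Cyp2t4 and Cyp2w1 had no counts. At or above a mean of 10 CPM, 18 members were not called, and their log2 fold changes lay between -0.20 and 0.17.

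Summed over all members, the level was 12426 ± 355 (SD, n = 3) in DIO and 11709 ± 215 CPM (SD, n = 5) in DIO + DHA, and the groups did not overlap (12060.0 to 12769 against 11465 to 11947 CPM). The sums that did not overlap were those of Cyp2e1, of the Cyp3a genes (1240 ± 18.3 and 1072 ± 41.0 CPM) and of Cyp2f2, besides the low Cyp2u1. The sums of the Cyp2c genes (1935 ± 61.8 and 1849 ± 75.0 CPM), of the Cyp2a genes (1283 ± 88.2 and 1193 ± 109 CPM) and of the Cyp2b genes (609 ± 28.0 and 561 ± 19.7 CPM) overlapped, although each of these subfamilies held genes called in both directions. Scaling without the marker genes of other tissues again gave 9 higher and 9 lower members. That setting changed only the scaling factors, so the part of other tissues in these calls was not tested.

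**Figure D4:**
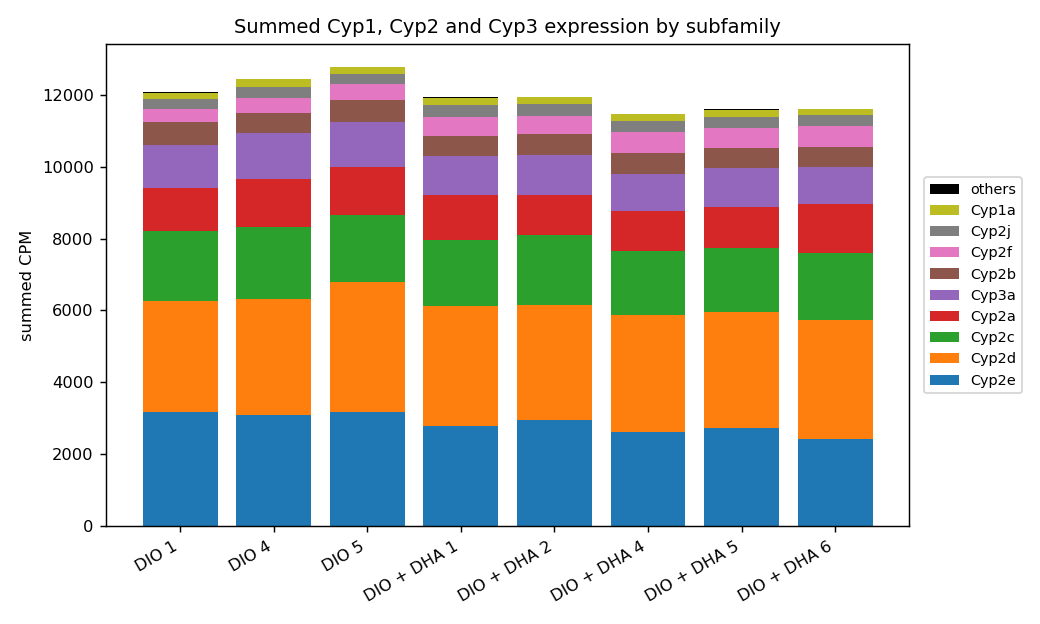
Summed CPM (y axis, from 0) of all members in each library, stacked by subfamily. The 3 DIO libraries reach 12060.0 to 12769 CPM and the 5 DIO + DHA libraries 11465 to 11947 CPM; the Cyp2e, Cyp2d and Cyp2c layers make up most of each bar.

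The partners and regulators of the P450 enzymes were followed in 4 lists with 70 tested genes, of which 8 were higher and 14 lower (31.4% called, against 15.2% of all genes tested). Of these, Aldh3a1 and Gsta1 passed the filter only through the group in which they were high, and without them 7 of 68 genes were higher and 13 lower (29.4%). In the list of electron transfer and haem supply, 4 of 19 tested genes were lower (21.1%, against 7.28% of all genes tested) and none was higher. Por, which passes electrons to all microsomal P450 enzymes, was at 717, 786 and 730.4 CPM in DIO and at 624, 564, 579, 589 and 526 CPM in DIO + DHA, a fall of 0.37 on the log2 scale (SE 0.07, adjusted p = 1.6e-05). Alas1, the rate-limiting enzyme of haem synthesis in the liver, was at 712, 718 and 711 CPM in DIO and at 351, 300.0, 309, 393 and 309 CPM in DIO + DHA, a fall of 1.10 on the log2 scale (SE 0.07, adjusted p = 7.08e-19). Both genes are known targets of CAR and PXR, and both were lower in all 5 DIO + DHA libraries. The activity of these receptors was not measured, and their part in these values was not tested. Cyb5r3, the reductase of cytochrome b5, fell by 0.42 on the log2 scale (SE 0.07), and Hmox1, which breaks haem down and is abundant in macrophages, fell by 1.23 on that scale (SE 0.22). Summed macrophage markers moved with Hmox1 (870 to 974 CPM in DIO, 502 to 537 CPM in DIO + DHA), and their part in its fall was not tested.

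Of 20 tested regulators, 3 were higher and 2 lower (25% called, against 15.2% of all genes tested). Nr1i2 (PXR) was at 59.6, 51.9 and 72.0 CPM in DIO and at 43.0, 45.2, 46.7, 45.7 and 43.7 CPM in DIO + DHA, a fall of 0.46 on the log2 scale (SE 0.10, adjusted p = 0.000659). Without DIO replicate 5 its fall was 0.28 and it was no longer called (a change of -0.28, adjusted p = 0.127). Nr1i3 (CAR) was at 10.1, 5.95 and 3.02 CPM in DIO and at 4.36, 7.04, 3.92, 5.15 and 4.15 CPM in DIO + DHA. Its 95% interval of -0.74 to 0.41 is wide, and its log2 fold change of -0.16 turned to 0.12 without DIO replicate 1. Ahr was at 13.0 ± 1.84 (SD, n = 3) and 10.2 ± 2.36 CPM (SD, n = 5) and was not called (log2 fold change -0.33, 95% interval -0.70 to 0.05). Hnf4a, a receptor that maintains hepatocyte expression of many P450 genes, fell by 0.53 on the log2 scale (SE 0.07, adjusted p = 7.12e-08). Nr0b2, the bile acid-induced repressor SHP, rose by 1.21 on the log2 scale (SE 0.13, adjusted p = 8.93e-11). The rises of the stress regulator Nfe2l2 (log2 fold change 0.29, adjusted p = 0.0472) and the chaperone Hsp90ab1 (log2 fold change 0.20, adjusted p = 0.0317) were not secure. With DESeq2 neither was called (adjusted p of 0.126 and 0.0725), and Nfe2l2 was also not called with limma-voom (0.0562), with total counts as the only scaling (0.0722), with no filter (0.0826) or with filterByExpr (0.0508). Nfe2l2 lost its call without DIO replicate 4 or 5 or without DIO + DHA replicate 1, 2, 4 or 6 (adjusted p of 0.0544 to 0.153). Hsp90ab1 lost it without DIO replicate 4 or 5 or without DIO + DHA replicate 1 or 4 (adjusted p of 0.0527 to 0.177).

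Of 30 tested further targets of CAR, PXR and AhR, 4 were higher and 8 lower, or 3 and 7 of 28 without Aldh3a1 and Gsta1. Of those 28, 35.7% were called, against 15.2% of all genes tested. Abcb4, the phospholipid transporter of bile, rose by 0.54 on the log2 scale (SE 0.08), the carboxylesterase Ces2a by 0.42 (SE 0.08) and the aldehyde dehydrogenase Aldh1a7 by 0.35 (SE 0.08). Aldh3a1, a target of AhR that is also abundant in squamous epithelium, had 0, 1 and 0 counts in DIO and 5, 2, 4, 5 and 7 in DIO + DHA (adjusted p = 0.00552) beside the rise of the squamous markers, whose part in it was not tested. Aldh3a1 passed the filter only through the DIO + DHA libraries. The glutathione transferases Gstm3, Gsta2, Gstp1 and Gsta1 were lower, at log2 fold changes of -1.07, -0.53, -0.35 and -2.13, the last with 6, 8 and 4 counts against 1, 0, 0, 2 and 3. Gsta1 passed the filter only through the DIO libraries. Reads that align equally well to several gene copies of this family could not be assigned. The aldehyde dehydrogenase Aldh1a1 fell by 0.35 on the log2 scale (SE 0.07), the oestrogen sulfotransferase Sult1e1 by 0.97 (SE 0.29), the glucuronosyltransferase Ugt2b36 by 0.25 (SE 0.07) and the bile transporter Abcc2 by 0.25 (SE 0.08). Of 2 tested epoxide hydrolases, Ephx2, which turns the epoxides of polyunsaturated fatty acids made by Cyp2c and Cyp2j enzymes into diols, was at 877, 882 and 842 CPM in DIO and at 1219, 1187, 1146, 1175 and 1199 CPM in DIO + DHA. It rose by 0.45 on the log2 scale (SE 0.06, adjusted p = 6.81e-08), with no overlap. Of the Cyp2c epoxygenases named above, Cyp2c50 and Cyp2c38 fell and Cyp2c54 and Cyp2c23 rose. Cyp2c29, the most abundant Cyp2c gene by 3′-end counts, was not called. The calls of 6 genes rested on particular libraries. Abcc2 lost its call without DIO replicate 1, 4 or 5 or DIO + DHA replicate 1 or 6 (adjusted p of 0.0556 to 0.109), Gsta1 without DIO replicate 1 or 4 or DIO + DHA replicate 1, 2 or 4 (0.0632 to 0.197), and Gsta2 without DIO replicate 4 or 5 or DIO + DHA replicate 2 or 5 (0.0534 to 0.0847). Sult1e1 lost it without DIO replicate 1 or 5 (0.0753 and 0.13), Ugt2b36 without DIO replicate 1 or 4 (0.0927 and 0.0697) and Aldh3a1 without DIO replicate 5 (0.0832). Without DIO replicate 5 the number of higher genes over the 4 lists was 5 in place of 8.

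**Figure D5:**
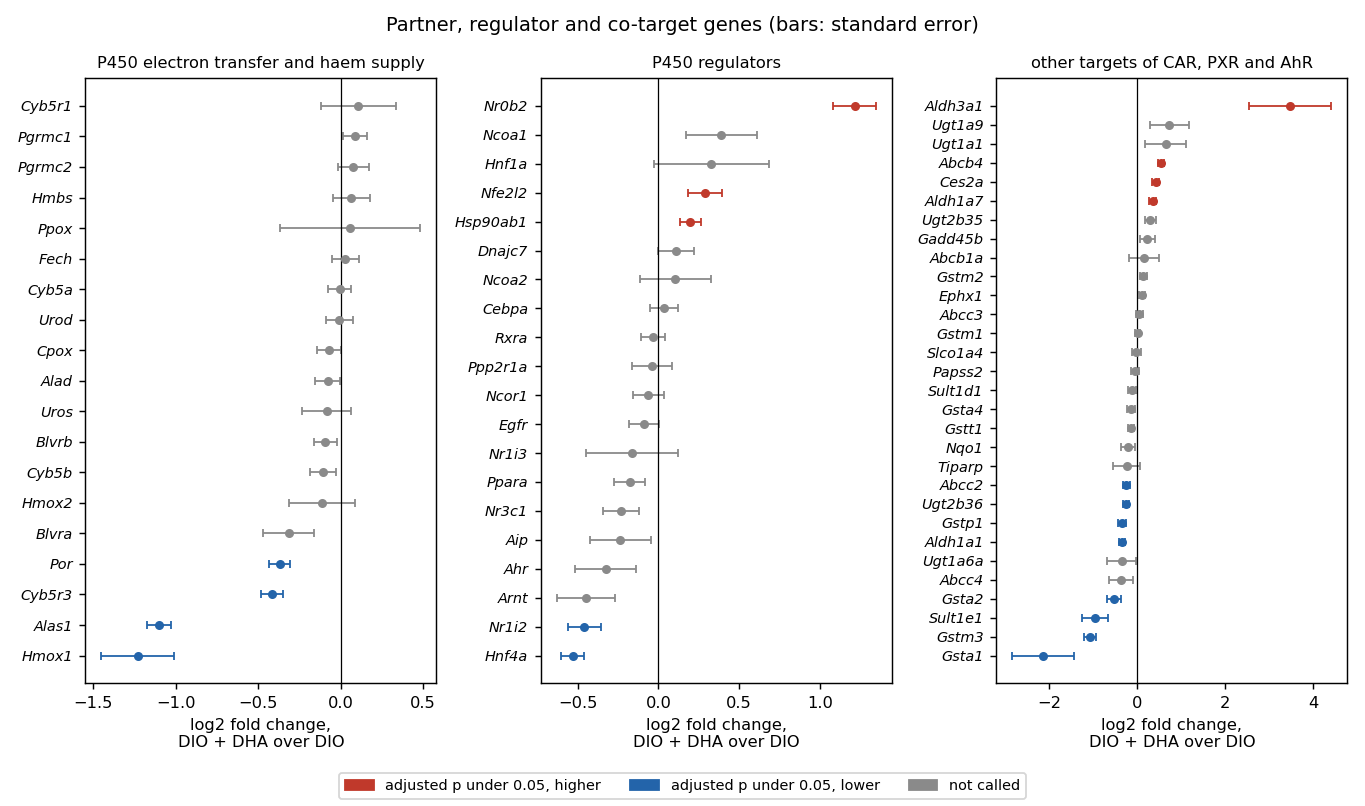
Log2 fold change (x axis, DIO + DHA over DIO) with its standard error for the tested genes of 3 lists: electron transfer and haem supply, regulators, and other targets of CAR, PXR and AhR. Red points were called higher, blue points lower and grey points were not called; Alas1, Hmox1, Por and Cyb5r3 stand at the lower end of the first list, which holds no red point.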

How the data were processed

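Liver RNA of 8 mice was sequenced as 3′-enriched cDNA primed with barcoded oligo(dT) that also holds a molecular identifier, 1 library per mouse (DIO, n = 3; DIO + DHA, n = 5). The authors trimmed the reads, checked them with FastQC 0.11.8, aligned them to GRCm39 with STAR 2.7.9a and counted them on GENCODE release 33 exons with featureCounts 1.6.0, and the counts they deposited are whole numbers that were not normalized. Per the file headers, no option for strand, multi-mapping or overlap was given in any of the 8 count runs, so strands were not told apart, reads of overlapping genes were left out and near-identical copies keep only their unique reads. The sources used here do not say if molecular identifiers were collapsed.

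Gene symbols were taken from GENCODE release 39, which named 56323 of 56884 gene IDs; 26 pseudogene rows with Cyp1, Cyp2 or Cyp3 symbols were not used. The 12412 genes with at least 5 counts in at least 50% of a group's libraries were tested with edgeR 4.0.16 (TMM, glmQLFit with robust dispersions, glmQLFTest, R 4.3.3), with p-values adjusted by Benjamini-Hochberg and a threshold of 0.05. The fit was also run on simulated counts that gave all genes the same dispersion. That setting is simpler than the data, so the run does not test the calls reported here. Library totals of 1723800 to 5690347 counts (median 4495644) set the precision, and values below about 5 counts are little more than detection. Replicates of a group differed by more than sampling noise. Alternatives were limma 3.58.1 (voom), DESeq2 1.42.0, other filters and scalings, and leaving out each library. Terminal windows are runs of 80 bases in the last 500 bases of a gene's longest protein-coding transcript. They were compared with every transcript of the other Cyp genes. A gene can thus have no shared window of its own while others share windows with it, as for Cyp2c40 and Cyp2c54. Promoters came from the RefSeq table, which matched 50 of 59 members, and were aligned with Biopython 1.88.

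Genes named in the text were every called member, the 10 most abundant members and the most abundant of each subfamily, the inducible and sex-biased members, Por, Nr1i2, Nr1i3, Ahr, every called gene of the partner lists and, by their counts, members below the filter. Members outside this rule that are named besides (Cyp2a22, Cyp2c68, Cyp2d12, Cyp3a25 and Cyp3a59) were chosen after their values were seen, to account for the rest of a subfamily. The members and lists were chosen with earlier results of these data known. Intervals cover the spread between mice or, for counts, counting error only.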

Additional observations from a re-analysis of the deposited data

Results flagged for a closer look

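Among 62 groups of values examined for a library far from the others, 1 stood out. Abcc2, the bile transporter MRP2, was at 89.54 CPM in DIO + DHA replicate 6, while the other DIO + DHA libraries lay between 104.5 and 108.8 CPM, so the gap took up most of the group's range. Chance flags about 1 in 20 such groups. Without this library the log2 fold change of Abcc2 was -0.20 and it was no longer called (edgeR adjusted p = 0.0878).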

How the results depend on the processing

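The number of called members was within 1.5 times that of the report under each alternative run, with 7 to 9 members higher and 6 to 10 lower. The 7 came from requiring at least 10 counts in every library, where Cyp2b10 and Cyp2c39 were not tested because of their low DIO counts. Leaving out each library in turn gave 9 higher and 7 to 10 lower members, and 16 of the 18 called members kept their call each time, the exceptions being Cyp2c38 and Cyp3a16. With limma-voom at an adjusted p below 0.05, Cyp3a16 was not called (adjusted p = 0.0625). With limma's B above 0, Cyp2a4, Cyp2c38, Cyp2e1 and Cyp3a16 were not called. Cyp2c37 was called with total counts as the only scaling (adjusted p = 0.018) and with edgeR's filterByExpr (adjusted p = 0.044). For the partner lists, 5 genes were higher with DESeq2, 4 with limma's B above 0 and 5 to 8 when a library was left out, against 8 in the report, and 7 were lower with B above 0, against 14. The log2 fold change of Cyp1a2 changed sign with total counts only (-0.016) and with filterByExpr (-0.00053), and ran from -0.047 to 0.11 when a library was left out, and that of Nr1i3 ran from -0.56 to 0.12. The cause of these changes was not tested, except that B above 0 is a stricter rule, which called 860 genes in place of 1883.

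Replicate numbers 1, 4 and 5 occur in both groups, but the deviations of same-numbered libraries were not correlated (r of -0.010, -0.013 and -0.015), so the numbers were not used as pairs. With the replicate number as a block in these 6 libraries, 8 members were higher and 10 lower, against 8 and 9 in the same libraries without the block, a fit chosen after seeing the data. Cyp2a4 was not called in these libraries with the block (adjusted p = 0.0792) or without it (0.0503), and Nfe2l2 was not called in either (0.389 and 0.273). Abcc2 was not called with the block (edgeR adjusted p = 0.174) or without it (0.133), nor were Gsta2 (0.0664 and 0.0508) and Sult1e1 (0.0509 and 0.0539). Cyp2c37 was called both with the block (0.00722) and without it (0.00632). Over the partner lists the block gave 8 higher and 11 lower. Depth limits the members below about 5 CPM, such as Cyp2d12, Cyp2r1, Cyp2u1 and Nr1i3 among the regulators, whose intervals were wide.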
